A study of Mus musculus with 15 samples.

Results

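In HPC-7, a mouse line of early blood cells that was derived from ES (embryonic stem) cells, 372 of 8007 regions called for YY1 or the cohesin subunit SMC3 overlapped no peak of H3K4me3. For each of these 2 targets, peaks of the 3 control libraries that shared at least 1 bp on chromosomes 1 to 19, X and Y were merged, and a merged region was kept when at least 2 libraries had a peak in it. The YY1 and SMC3 regions were then joined, and the 372 were those touching no peak in any of 3 H3K4me3 libraries. They were thus chosen by the presence of YY1, control SMC3 and H3K4me3 peaks, and counts by these calls are a description. The other 7635 regions overlapped H3K4me3.

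Peak lists came from CUT&Tag, which uses an antibody to bring a transposase to a target so that nearby DNA is cut and barcoded, with about 150000 cells per reaction. Cells carrying an shRNA directed at YY1 (shYY1) were profiled for SMC3. Control cells, titled WT but described by the luciferase hairpin name shLUC, were profiled for SMC3, YY1 and H3K4me3, with 3 libraries per group. All groups were the same cell line; no age, clone or time after transduction is given, and the number 2 that follows shYY1 in the descriptions is not explained. The first SMC3 library of each arm alone names Abcam in its description. The 3 IgG libraries and YY1 in shYY1 cells were not analysed here, so neither the background of an untargeted antibody nor the extent of the knockdown was measured. The labels call the libraries biological replicates without naming separate cultures, so p values measure the spread between these libraries, which may be partly technical. The lists give intervals without scores, so sequencing depth is unknown and a peak is either called or not called.

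List length differed within groups. The shYY1 SMC3 lists held 2631, 3213 and 3032 peaks, the control SMC3 lists 4511, 4595 and 2061, the YY1 lists 8469, 10699 and 3750, and the H3K4me3 lists 16763 to 17895. The third YY1 and the third control SMC3 library were the shortest of their groups. The labelled cell type was checked on marker genes with an annotated start: H3K4me3 lay at 9 of 9 blood progenitor genes, among them Kit, Gata2, Runx1 and Myb, at 1 of 7 pluripotency genes (Klf2), and at 0 of 7 liver, nerve, muscle and epithelial genes and 0 of 4 lymphocyte genes.

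YY1 is a zinc finger factor that binds DNA at promoters and enhancers, can bridge such sites and can act as activator or repressor. SMC3 forms, with SMC1A and RAD21, the ring of cohesin, which extrudes chromatin loops and halts where CTCF is bound. H3K4me3 is placed at active and poised promoters, so regions without it include enhancers, loop anchors and other places away from active promoters; these classes were not measured here.

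Of the 372 regions, 210 had a YY1 region without an SMC3 region, 87 had both, and 75 had an SMC3 region without a YY1 region. The corresponding counts among the regions with H3K4me3 were 4191, 3326 and 118. SMC3 without YY1 thus made up 20.2% of the regions without H3K4me3 and 1.55% of those with it. Regions without H3K4me3 were 282.5 bp wide at the median, with quartiles of 221 and 375.5 bp, against 460 bp with quartiles of 345 and 607 bp for regions with H3K4me3.

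Sequence was at hand for regions that touch the promoter of an annotated transcript, which are the exception here. RefSeq promoter windows of GRCm38.p6, the assembly of mm10, run from 250 bases before to 50 bases after a start, and 9 of them, at 7 regions, touched a region without H3K4me3. The 3 windows that lie wholly inside such a region, and the part of the Stard10 window that does, are shown because YY1 was called there without the promoter mark. The same holds for Gm34157, whose part inside its region is longer than that of Stard10, with 213 bases at 63.4% GC. It is not printed and held no match to the letters searched. Gm41331, Gm13842 and Gm52920 are known only by their table names, and Stard10 encodes a lipid transfer protein. Each line reads 5′ to 3′ on the strand of the gene. Capitals mark matches on either strand to TGTGGTT (RUNX), GATAA (GATA) or CAGNTG (E-box).
Gm41331, chr15:60141661-60141960, plus strand: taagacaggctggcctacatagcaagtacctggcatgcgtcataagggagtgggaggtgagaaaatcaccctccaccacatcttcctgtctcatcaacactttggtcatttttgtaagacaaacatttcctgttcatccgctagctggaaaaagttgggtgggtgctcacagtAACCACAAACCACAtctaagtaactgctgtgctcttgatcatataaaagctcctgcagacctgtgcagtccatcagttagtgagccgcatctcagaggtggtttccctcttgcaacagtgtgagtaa
Gm13842, chr5:116029192-116029491, minus strand: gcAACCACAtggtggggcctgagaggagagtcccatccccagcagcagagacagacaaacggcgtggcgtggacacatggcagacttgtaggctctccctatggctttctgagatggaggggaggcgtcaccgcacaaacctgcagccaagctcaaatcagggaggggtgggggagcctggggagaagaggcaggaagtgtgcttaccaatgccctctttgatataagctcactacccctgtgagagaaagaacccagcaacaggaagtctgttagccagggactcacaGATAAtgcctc
Gm52920, chr6:134186464-134186763, minus strand: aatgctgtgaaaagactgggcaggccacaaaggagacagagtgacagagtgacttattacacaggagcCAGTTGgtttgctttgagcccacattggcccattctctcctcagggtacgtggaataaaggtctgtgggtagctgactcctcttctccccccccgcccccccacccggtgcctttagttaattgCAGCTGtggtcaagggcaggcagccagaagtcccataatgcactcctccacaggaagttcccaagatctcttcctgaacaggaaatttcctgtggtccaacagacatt
Stard10, chr7:101316836-101317028, plus strand: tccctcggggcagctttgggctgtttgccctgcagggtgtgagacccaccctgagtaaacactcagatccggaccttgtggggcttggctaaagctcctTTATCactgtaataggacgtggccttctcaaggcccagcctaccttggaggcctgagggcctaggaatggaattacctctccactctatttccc

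The Gm41331 window holds the RUNX letters 2 times side by side, and Gm13842 holds them once near its 5′ end. Over the 9 whole windows, TGTGGTT was found in 3, of which 2 are overlapping starts of Gm41331, against 5.27% of all 32851 promoter windows and 3.29% of the 6386 that touch a region with H3K4me3. GATAA was in 3 of the 9, against 25.4% of all windows and 13.2% of those with H3K4me3. The shorter YY1 letters CCATNTT were in 0 of the 9, against 16.1% and 18.8%, the shorter ETS letters CGGAAG in 0, against 16.9% and 40.4%, and CAGNTG in 2, against 51.4% and 38.1%. The CTCF motif, named only, was in 1 window, that of Stard10. The 9 windows had a median GC content of 50.7% and a median of 5 CpG, against 62.7% and 24 CpG in the windows that touch a region with H3K4me3. A match to letters is not a bound site, and 9 windows are too few for a comparison of shares.

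The region at Gm41331, chr15:60141622-60142004, was called widely. Its peaks measured 204 and 168 bp in shYY1 SMC3 libraries 1 and 3, with none in library 2, against 216, 257 and 219 bp in the control SMC3 libraries. The YY1 peaks measured 216, 351 and 319 bp. Both targets were thus called in every control library, 190326 bp from the nearest H3K4me3 peak. At Gm13842 and Stard10, YY1 was called in libraries 1 and 2 only, and no SMC3 library of either arm had a peak.

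The first question was where the regions without H3K4me3 lie. They mostly lay away from the annotated starts at hand and often outside genes. The list of starts was incomplete on other chromosomes than 18 too. It held a start for 9 of the 12 blood progenitor genes checked. A region 728 bp from the span of Atp13a3 and 282 bp from H3K4me3 counted as away from starts. The shares near a start may thus be too low in both classes. Within 1000 bp of an annotated start were 15 of 358 regions (4.19%) without H3K4me3, leaving out chromosome 18, against 5139 of 7443 (69.0%) with it; over all regions the share was 66.1%. Of the 372 regions, 181 (48.7%) lay outside every annotated gene span, 150 (40.3%) inside a protein-coding span and 38 (10.2%) inside a lncRNA span. With H3K4me3 the shares were 11.1%, 83.5% and 13.6%.

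**Figure D1:**
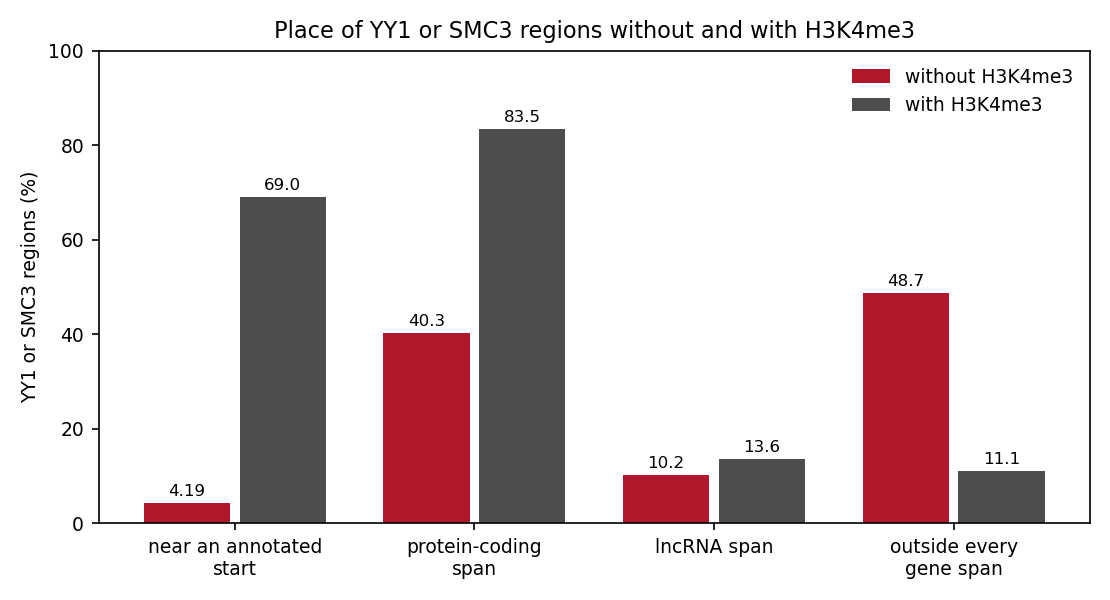
Share of YY1 or SMC3 regions (percent, vertical axis) in 4 kinds of place, for the 372 regions without H3K4me3 (red, left) and the 7635 with it (grey, right). Regions without H3K4me3 were near an annotated start in 4.19% and outside every gene span in 48.7%, against 69.0% and 11.1% with H3K4me3. A region can count in several places. Chromosome 18 is left out of the start shares, and the list of starts lacks some genes elsewhere.

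The same held library by library. Of YY1 peaks in regions without H3K4me3, 5.60, 5.24 and 2.30% lay within 1000 bp of a start, against 69.4, 69.4 and 72.3% in regions with it. Of control SMC3 peaks, 1.99, 2.10 and 2.63% did, against 71.2, 71.1 and 69.8%. The mean difference was -67.2 percentage points, below 0 in 6 of 6 libraries. H3K4me3 is itself a mark of starts, so the direction was set by the choice of the regions and no test is given.

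The 15 regions near a start included 12 with YY1 alone. Protein-coding genes with such a region nearest to their start were Alyref2 (559 bp), Mettl17 (990 bp), Shroom3 (937 bp), Dtx2 (956 bp), Pilrb2 (430 bp), Sspn (926 bp) and Stard10 (58 bp). Alyref2 belongs to the family of mRNA export adaptors, and Pilrb2 to that of paired immunoglobulin-like receptors. The regions at Alyref2, Mettl17, Dtx2 and Pilrb2 lay 257, 585, 894 and 240 bp from an H3K4me3 peak, whereas those at Shroom3 and Sspn lay 27984 and 37949 bp away.

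Distance to the nearest H3K4me3 peak ran from 98 bp to 11465947 bp, with a median of 24874.5 bp and quartiles of 4679.75 and 75556 bp. Of the 372 regions, 33 (8.87%) lay under 1 kb from H3K4me3, 93 between 1 and 10 kb, 170 (45.7%) between 10 and 100 kb, 70 between 100 kb and 1 Mb, and 6 farther. Most thus lay at least 10 kb from H3K4me3. The median distance was 20616.5 bp for regions with YY1 alone, 38524 bp for regions with both targets and 29764 bp for regions with SMC3 alone.

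**Figure D2:**
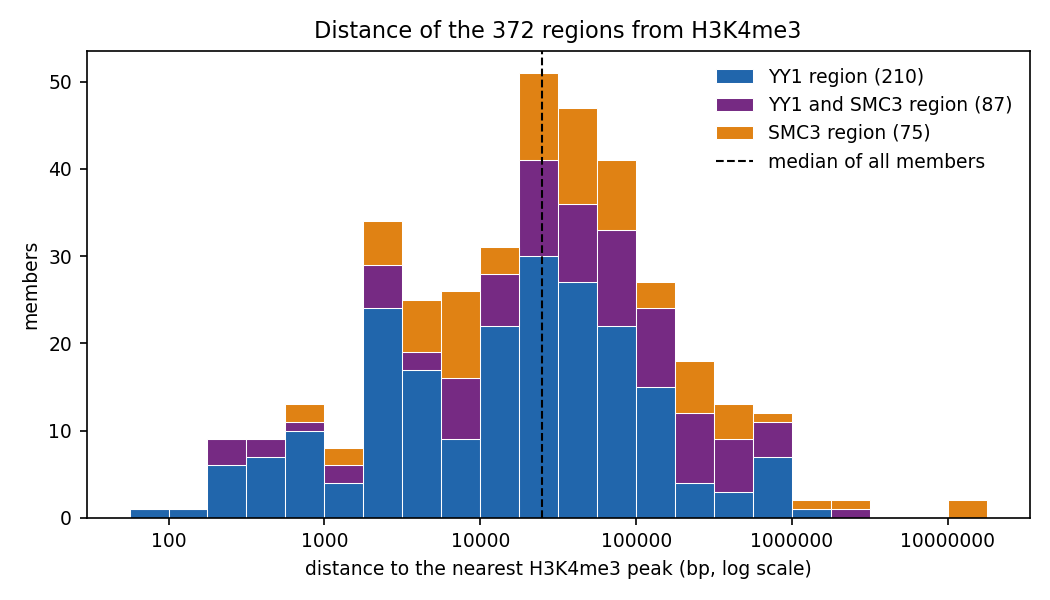
Number of regions without H3K4me3 (vertical axis) by distance to the nearest H3K4me3 peak in bp (horizontal axis, log scale), stacked by target. The dashed line is the median of 24874.5 bp; 33 of the 372 regions lie under 1 kb.

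Counted in bp from a peak, the threshold of no overlap cut through few regions. The nearest regions without H3K4me3 lay 98 bp (at Rnu5g, a U5 snRNA gene), 111 bp, 193 bp, 208 bp and 225 bp from a peak, and the nearest regions on the other side overlapped one by 9, 9, 47, 58 and 66 bp. These values are a description of the rule. The number of H3K4me3 libraries mattered more. Where an H3K4me3 region needed peaks in at least 2 libraries, 499 regions lacked H3K4me3, against 372 by the rule used.

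Regions without H3K4me3 were spread over all chromosomes, from 1.57% of the regions of chromosome 19 to 6.99% of those of chromosome 12, except on chromosome Y, where they were 7 of 13 regions (53.8%). Other kinds of place that stood out were chosen after their values were seen. Of the 372, 15 (4.03%) lay in the first 3.2 Mb of a chromosome, which on mouse autosomes borders the centromere, against 10 (0.131%) of the regions with H3K4me3. On immunoglobulin V segments lay 7 (1.88%), against 8 (0.105%), and on genes that the table types as snRNA 7 (1.88%), against 14 (0.183%). Together with the regions on chromosome Y and those within 1 kb of another small RNA gene these were 41 regions. Copies of these genes and repeats are near-identical, so calls at single copies are uncertain. How reads that map to several copies were handled is not stated. The 7 regions on snRNA genes include 5 of 1 cluster inside Tex14. Other small RNA types were mixed. On snoRNA genes lay 1 region (0.269%), against 5 (0.0655%). The tRNA and miRNA genes went the other way: tRNA genes had 1 region (0.269%), against 57 (0.747%), and miRNA genes 0, against 27 (0.354%). All small RNA genes together had 9 (2.42%), against 117 (1.53%).

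All 7 regions on V segments were on segments of 1 family, Ighv1, the largest family of heavy chain V segments, which B cells join to D and J segments to build the antibody gene. Ighv1-53, Ighv1-55, Ighv1-58, Ighv1-64, Ighv1-80 and Ighv1-84 and the pseudogene Ighv1-2 carried them, out of 92 Ighv1 segments. No other V segment of 547 annotated had such a region. Regions with H3K4me3 also lay mostly on this family, at 6 Ighv1 segments and 2 other V segments. Each region began 32 to 96 bp below the lower coordinate of its segment and ended inside it. At Ighv1-53, chr12:115158413-115158679, peaks measured 210 and 211 bp in shYY1 SMC3 libraries 2 and 3, with none in library 1, against 221 and 128 bp in control SMC3 libraries 1 and 2, with none in library 3. The YY1 peaks there measured 248 and 267 bp in libraries 1 and 2. YY1 was called in libraries 1 and 2 at all 7 segments and in library 3 at Ighv1-58 alone.

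Counted over single libraries, the Ighv1 family held most of the peaks on heavy chain V segments for both targets and in both arms. Ighv1 segments with a peak numbered 8, 10 and 9 of 92 in the shYY1 SMC3 libraries, 13, 14 and 4 in the control SMC3 libraries and 13, 22 and 4 in the YY1 libraries. Of the 91 heavy chain V segments of other families, 0, 0 and 0 had a peak in the shYY1 SMC3 libraries, 0, 1 and 0 in the control SMC3 libraries and 1, 3 and 0 in the YY1 libraries. H3K4me3 peaks lay on 3, 5 and 5 Ighv1 segments and on 2, 2 and 1 others. Marker genes of B and T cells with an annotated start (Cd3d, Cd3e, Cd79a and Pax5) had no H3K4me3.

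Another cluster lay on genes of the U3 RNA, which guides the processing of ribosomal RNA. There, 5 regions between 87426664 and 87472277 on chromosome 11, inside the span of Tex14, sat at 4 U3 genes, Rnu3b1, Rnu3b3, Rnu3b4 and Rnu3b2, and at Gm22068, which the table types as snRNA without naming its RNA. YY1 was called at them in every YY1 library, except library 1 at Rnu3b2. At Rnu3b4, chr11:87462388-87463065, no shYY1 SMC3 library had a peak, against 373, 165 and 301 bp in the control SMC3 libraries; YY1 peaks measured 516, 614 and 465 bp. At Gm22068, chr11:87426664-87427232, shYY1 SMC3 peaks measured 182 and 247 bp in libraries 1 and 2, with none in library 3, against 170, 244 and 298 bp in the control SMC3 libraries, and YY1 peaks measured 547, 536 and 515 bp. Over the cluster, SMC3 was called at 2, 1 and 0 of the 5 regions in the shYY1 libraries and at 4, 4 and 3 in the control libraries. Over all 372 regions SMC3 was called at 26.3, 29.3 and 31.2% in the shYY1 libraries and at 50.3, 44.1 and 21.8% in the control libraries, and control SMC3 calls helped to choose the regions. No region was tested alone, since calls in 3 libraries a side cannot pass 0.05.

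Other small RNA genes with a region without H3K4me3 included Rnu5g, Snord118 (the U8 RNA of ribosome assembly), Rn7sk (the 7SK RNA that holds back transcription elongation), a tRNA gene (n-TCgca57) and the 5S rRNA array on chromosome 8, where 3 regions lay among 48 genes. YY1 was called in libraries 1 and 2 at each of them. SMC3 was called at Rn7sk in control library 2 and at the region near n-R5s136 in shYY1 library 1, and in no other SMC3 library at these genes.

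The lowest bases of chromosome 9 held 7 regions between 3001699 and 3029864. At chr9:3012190-3012952 peaks measured 752, 769 and 683 bp in the shYY1 SMC3 libraries, against 650, 712 and 702 bp in the control SMC3 libraries, and 648, 763 and 538 bp in the YY1 libraries. This region had among the longest YY1 and the longest SMC3 peaks of all 372. On chromosome Y, the region at chrY:90826121-90826907 had 377, 403 and 696 bp in the shYY1 SMC3 libraries, against 708, 696 and 696 bp in the control SMC3 libraries, and 781, 787 and 718 bp in the YY1 libraries.

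Called in all 9 YY1 and SMC3 libraries were 26 of the 372 regions (6.99%), against 1165 of 7635 (15.3%) with H3K4me3; over all regions the share was 14.9%. Of the 26, 5 lay inside a protein-coding span and 0 within 1000 bp of a start. They lay 627 to 930157 bp from H3K4me3, with a median of 32665.5 bp, 5 in the first 3.2 Mb of a chromosome and 2 on chromosome Y. At chr16:91534585-91534787, 12271 bp from Ifngr2, which encodes a chain of the interferon gamma receptor, peaks measured 184, 184 and 191 bp in shYY1 SMC3, against 193, 182 and 184 bp in control SMC3, and 194, 203 and 193 bp in YY1. All 9 peaks there had nearly the same length. Inside Cdk17, a cyclin-dependent kinase gene, the region at chr10:93246734-93247233 had 271, 251 and 255 bp in shYY1 SMC3, against 293, 365 and 254 bp in control SMC3, and 259, 290 and 478 bp in YY1.

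Among regions with SMC3 in 6 of 6 libraries, the highest mean percentile of SMC3 peak length was that of a region inside Smyd3, a lysine methyltransferase gene, at chr1:179162931-179164310. Its SMC3 peaks measured 1262, 711 and 969 bp in shYY1, against 1380, 1239 and 1217 bp in control. YY1 was called there in libraries 2 and 3, with 1121 and 332 bp. Every shYY1 SMC3 peak but the first was shorter than every control peak. Other regions with long peaks lay inside Actr3b, an Arp3-related gene, and Tmem267, 8427 bp from the start of Olfm1, a secreted glycoprotein gene of nerve cells, 11270 bp from Eci2, an enzyme of fatty acid oxidation, and 39273 bp from Pde6h, a cone phosphodiesterase subunit. At the Pde6h region, chr6:137002759-137003209, SMC3 measured 400, 428 and 414 bp in shYY1, against 437, 409 and 391 bp in control, with YY1 in libraries 1 and 2 alone.

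At the other end, 140 of the 226 regions with YY1 in exactly 2 libraries had no SMC3 peak in any of the 6 SMC3 libraries. They lay 17518.5 bp from H3K4me3 at the median, 65 (46.4%) lay inside a protein-coding span, 8 were near a start and 17 lay under 1 kb from H3K4me3. In 207 of the 226 the 2 libraries were the first and second, the libraries with the longer lists.

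The next comparison asked whether YY1 regions without H3K4me3 carry SMC3 as often as those with it. They did so less often in every library. An SMC3 peak lay at 23.6, 24.6 and 26.3% of the 297 YY1 regions without H3K4me3 in the shYY1 libraries and at 38.4, 33.3 and 17.2% in the control libraries. At the 7517 YY1 regions with H3K4me3 the shares were 31.7, 38.0 and 36.4% in the shYY1 libraries and 51.7, 53.4 and 25.6% in the control libraries. The mean difference, without minus with H3K4me3, was -12.2 percentage points over the 6 libraries, of which the 3 control libraries helped to choose the regions. In the shYY1 libraries, which the choice did not use, it was -10.6 ± 2.65 points (SD, n = 3), below 0 in 3 of 3 (two-sided exact sign-flip permutation p = 0.25, unadjusted and the smallest that 3 libraries can give).

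The same shares were compared by the number of YY1 libraries. Of YY1 regions without H3K4me3, 71 of 297 (23.9%) were called in all 3 YY1 libraries, against 46.4% of those with H3K4me3. Among regions called in all 3, SMC3 lay at 60.6, 53.5 and 53.5% of the 71 without H3K4me3 in shYY1 and at 74.6, 70.4 and 50.7% in control, against 52.4, 59.0 and 56.9% in shYY1 and 72.0, 74.1 and 45.3% in control for the 3491 with it. The mean difference was 0.633 points and changed sign between libraries. Among regions called in exactly 2 YY1 libraries it was -4.96 points, below 0 in 6 of 6 libraries. Without YY1 replicate 2, which leaves regions called in both other libraries, the overall difference was 0.817 points, and without YY1 replicate 1 it was -5.78. Whether the difference itself differs between regions called in 2 and in 3 YY1 libraries was not tested.

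**Figure D3:**
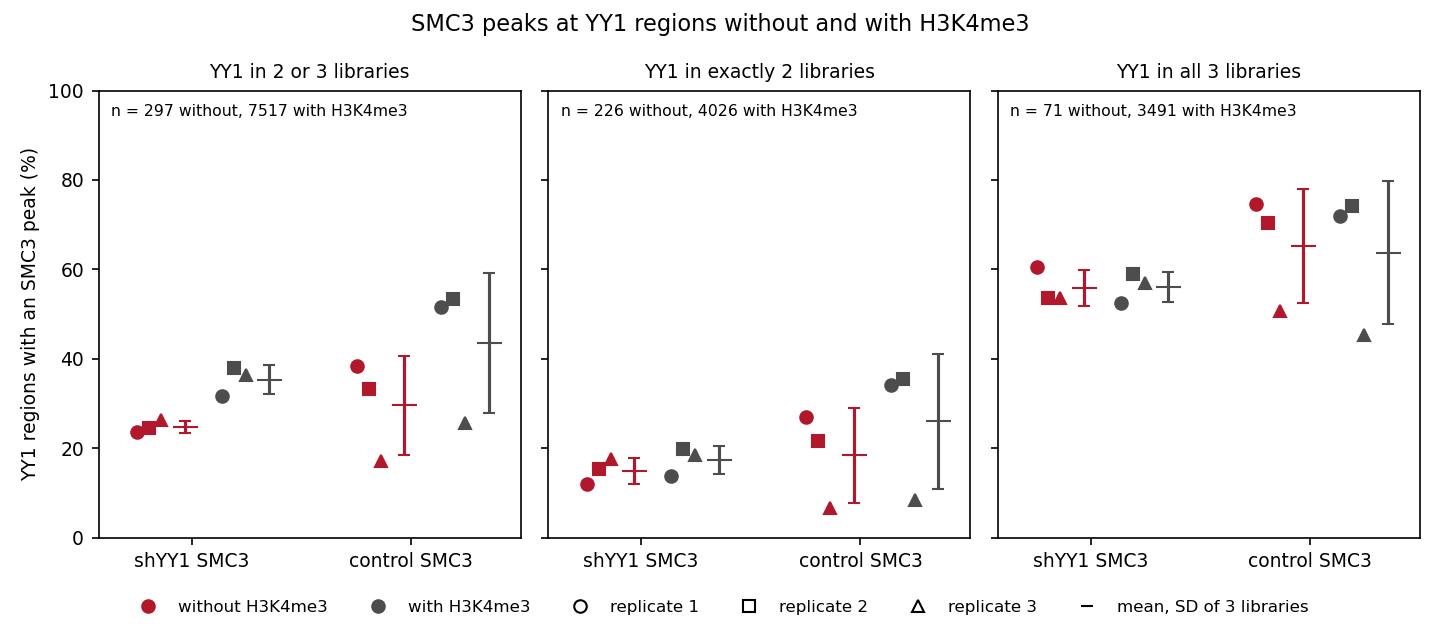
Share of YY1 regions with an SMC3 peak (percent, vertical axis) in each shYY1 (left) and control (right) library, for regions without (red) and with (grey) H3K4me3, over all YY1 regions, those called in exactly 2 YY1 libraries and those called in all 3. Bars are means and SD of 3 libraries; in the right panel the shares ran from 50.7 to 74.6% without H3K4me3 and from 45.3 to 74.1% with it.

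In counts, 155 of the 297 YY1 regions without H3K4me3 (52.2%) had SMC3 in none of the 6 libraries, against 33.3% with H3K4me3 and 34.1% of all YY1 regions. SMC3 in all 6 libraries was found at 37 (12.5%), against 17.2% with H3K4me3 and 17.0% of all. In at least 2 shYY1 libraries SMC3 was called at 69 (23.2%), against 33.9% with H3K4me3 and 33.5% of all. In at least 2 control libraries it was called at 87 (29.3%), against 44.4% with H3K4me3 and 43.9% of all.

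Seen from SMC3, the regions without H3K4me3 had YY1 less often in each YY1 library. Of 162 control SMC3 regions without H3K4me3, YY1 was called at 53.7, 74.7 and 33.3% in the 3 YY1 libraries, against 96.7, 98.8 and 67.7% of the 3465 with H3K4me3. The mean difference was -33.8 points, below 0 in 3 of 3 libraries; it is given as a description with no test, since these calls chose the regions. YY1 was called in at least 2 libraries at 85 of the 162 (52.5%), against 96.6% with H3K4me3 and 94.6% of all control SMC3 regions. It was called in no library at 34 (21.0%), against 28 of 3465 (0.808%) with H3K4me3 and 1.71% of all. Regions without H3K4me3 held 34 of the 62 control SMC3 regions that lack YY1 in every library. Of the 75 joined regions with an SMC3 region and no YY1 region, 41 had a YY1 peak in 1 library. In 34 of these 41 it was library 2, the longest list.

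The third question was how SMC3 at these regions differs in shYY1 cells. Its share at YY1 regions without H3K4me3 averaged 24.8% ± 1.36 in shYY1 and 29.6% ± 11.1 in control (SD, n = 3 each), a difference of -4.83 points (exact permutation p = 0.5, Benjamini-Hochberg adjusted p = 0.5625 over 9 tests). That is smaller than the control SD. Control library 3, with the shortest list, lay below every shYY1 library, and control libraries 1 and 2 lay above them. The difference was 0.168 points without the first library of each arm, whose description names Abcam, and 2.69 points when each SMC3 list was cut to an equal count of its longest peaks. With 3 libraries a side p cannot go below 0.1, so a p of this size does not show that the arms are alike. A YY1 region took the H3K4me3 class of its joined region, which control SMC3 peaks helped to form and shYY1 peaks did not. The permutation treats the arms as interchangeable in this. Its p is thus a description, here and for the difference between arm differences below.

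The arm difference was set against that at regions with H3K4me3, where SMC3 averaged 35.4% ± 3.25 in shYY1 and 43.6% ± 15.6 in control. The 2 arm differences differed by 3.37 points (exact permutation p = 0.5, adjusted p = 0.5625), with the sign turned to -1.68 for regions called in 3 of 3 libraries and to -1.79 without YY1 replicate 2. The share of all SMC3 peaks that lay off H3K4me3 was 6.01, 5.54 and 5.74% in shYY1 and 7.34, 5.18 and 4.46% in control. Its mean differed by 0.101 points (exact permutation p = 1, adjusted p = 1), and the sign changed in 6 of 21 alternatives. YY1 lists had 4.43, 8.78 and 2.85% of peaks off H3K4me3.

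Control SMC3 regions without H3K4me3 were called again in 54.3, 59.3 and 62.3% of cases in the 3 shYY1 libraries, against 62.3, 72.0 and 69.4% of those with H3K4me3. The mean difference was -9.24 points, below 0 in 3 of 3 libraries (exact sign-flip permutation p = 0.25, adjusted p = 0.375). At least 2 shYY1 libraries had a peak at 98 of the 162 (60.5%), against 68.9% with H3K4me3 and 68.5% of all.

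Within the SMC3 regions without H3K4me3, those that also had YY1 had a higher share called again in each shYY1 library. The comparison was chosen after the data were seen. YY1 was counted over the SMC3 region itself rather than the joined region. For the 77 with YY1 in 0 or 1 library the share called in shYY1 was 36.4, 46.8 and 50.6%, against 70.6, 70.6 and 72.9% for the 85 with YY1 in at least 2 libraries. The mean difference was -26.8 points, below 0 in 3 of 3 libraries (exact sign-flip permutation p = 0.25, the smallest possible, unadjusted). Among regions with SMC3 in exactly 2 control libraries the difference was -7.41 points (59 and 37 regions), and among those with SMC3 in all 3 it was -33.3 points (18 and 48 regions). With H3K4me3 the difference was -37.8 points (119 and 3346 regions). Split in the same way, it was -22.2 points with SMC3 in exactly 2 control libraries (107 and 1607 regions). With SMC3 in all 3 it was -15.6 points (12 and 1739 regions). The larger difference was thus at 3 libraries without H3K4me3 and at 2 with it.

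SMC3 was called in every control library and no shYY1 library at 5 of the 372 regions (1.34%), against 35 of 7635 (0.458%) with H3K4me3 and 0.4996% of all. The reverse held at 1 region (0.269%), against 0.0125% of all. Control SMC3 calls could bring a region into the set and shYY1 calls could not, so the difference between the 2 counts follows in part from the choice. The control-only count was 3 without the 41 regions in repeated kinds of place, and it was 12 and 27 without control SMC3 replicates 2 and 3. Leaving a library out also loosens the rule, so a higher count follows by construction.

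The region 3560 bp from the span of Kit, which encodes the receptor of stem cell factor, lay at chr5:75660283-75660681, 69925 bp from H3K4me3; its control SMC3 peaks measured 396, 355 and 187 bp, and no YY1 library had a peak. A region inside 4930558K02Rik, chr1:161976326-161976618, measured 183, 225 and 293 bp and had no YY1 either. Beside Rgs1, a regulator of G protein signalling, the region at chr1:144243494-144243907 measured 226, 243 and 290 bp, with a YY1 peak of 151 bp in library 2 alone. These 3 of the 5 control-only regions entered the set through control SMC3 alone, which fixes their YY1 calls at 1 library or fewer. At Alyref2, chr1:171502226-171502919, control SMC3 measured 278, 202 and 206 bp and YY1 360, 692 and 625 bp, and the other region was that of Rnu3b4. The shYY1-only region, chr1:195371654-195371957, measured 231, 130 and 166 bp in the shYY1 libraries, with YY1 peaks of 304 and 262 bp in libraries 2 and 3. Its nearest protein-coding gene was Cr2, a complement receptor gene of B cells, 194773 bp away.

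**Figure D4:**
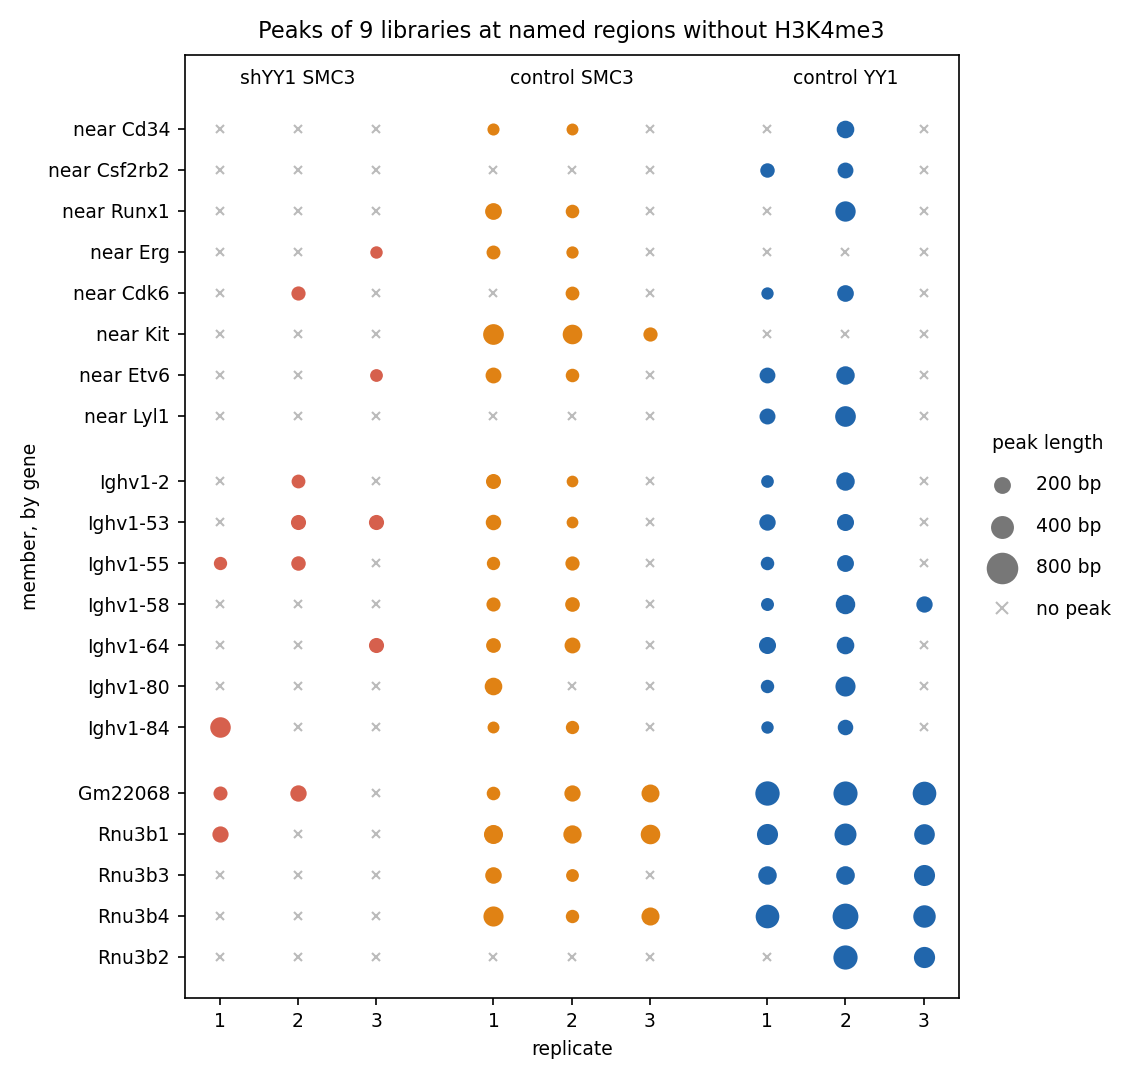
Peak length in bp (area of each dot) at regions without H3K4me3 near blood genes, on Ighv1 segments and in the U3 cluster, in the 3 libraries each of shYY1 SMC3 (left), control SMC3 (middle) and YY1 (right). A cross is no peak. At the Kit region only the control SMC3 libraries had peaks. At Rnu3b3 and Rnu3b4 no shYY1 SMC3 library had one, and at Rnu3b2 no SMC3 library of either arm did. Control SMC3 library 3 had none at Rnu3b3 either.

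The last question was which blood genes have such a region. A gene was counted when it held the region or was the nearest gene or start within 50 kb. By this count 4 of 33 haematopoietic transcription factor genes and 4 of 28 genes of receptors and signalling had one, beside 321 of 21883 protein-coding genes (1.47%), and 0 of 16 cohesin and CTCF genes and 0 of 13 genes of the YY1 family and its partners did. Longer genes and genes in sparse surroundings are counted more easily, and no set was tested.

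Among the transcription factor genes these were Runx1, Erg, Etv6 and Lyl1. Runx1, a master regulator of blood stem cell formation, held the region chr16:92822276-92822534, 3540 bp from its start and 1026 bp from H3K4me3. No shYY1 SMC3 library had a peak there, against 259 and 170 bp in control SMC3 libraries 1 and 2, and YY1 was called in library 2 with 382 bp. The region 17480 bp from Erg, an ETS factor gene of stem cells, at chr16:95341510-95341688, had an SMC3 peak of 143 bp in shYY1 library 3, against 179 and 139 bp in control libraries 1 and 2, with no YY1. Etv6, an ETS repressor gene, held the region over Gm52920 whose sequence is shown above, with 151 bp in shYY1 SMC3 library 3, against 232 and 169 bp in control SMC3 libraries 1 and 2, and YY1 in libraries 1 and 2 with 231 and 315 bp. The region 1044 bp from the start of Lyl1, a basic helix-loop-helix factor gene, at chr8:84699999-84700413, lay 190 bp from the span of Trmt1 and 936 bp from H3K4me3 and had YY1 peaks of 235 and 394 bp in libraries 1 and 2 and no SMC3.

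Among receptors and signalling genes, Cd34, a surface protein of blood progenitors, held the region chr1:194946605-194946747 with SMC3 of 135 and 131 bp in control libraries 1 and 2, none in shYY1, and YY1 of 286 bp in library 2. Cdk6, a kinase of cell cycle entry, held chr5:3497708-3497964 with SMC3 of 186 bp in shYY1 library 2, against 176 bp in control library 2, and YY1 of 140 and 257 bp in libraries 1 and 2. The region 37583 bp from the start of Csf2rb2, which encodes a beta chain of the interleukin 3 receptor of mice, and 5324 bp from Ncf4 had YY1 of 193 and 232 bp in libraries 1 and 2 and no SMC3. The region beside Kit, given above, had SMC3 in all 3 control libraries. No region of the 8 had YY1 in all 3 libraries, and 1 of the 8, that beside Kit, had SMC3 in all 3 control libraries; in shYY1 each had SMC3 in at most 1 library. Over all 372 regions, YY1 was called in 3 libraries at 19.1%, SMC3 in 3 control libraries at 17.7% and in 0 or 1 shYY1 library at 267 (71.8%). The regions at Runx1, Erg, Cd34 and Kit entered the set through control SMC3 alone, so more calls in control than in shYY1 follow there in part from the choice.

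Peaks were shorter without H3K4me3 in every library, given as a description since a longer region has more room to touch an H3K4me3 peak. In the shYY1 libraries, median SMC3 peak length was 246.5, 199 and 204.5 bp without H3K4me3 and 272, 250 and 258 bp with it. In the control libraries it was 202, 184 and 225 bp without H3K4me3 and 275, 277 and 253 bp with it. Median YY1 peak length was 191, 284 and 260 bp without H3K4me3 and 337, 438 and 325 bp with it. The mean differences were -54.0 bp for SMC3 and -122 bp for YY1.

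**Figure D5:**
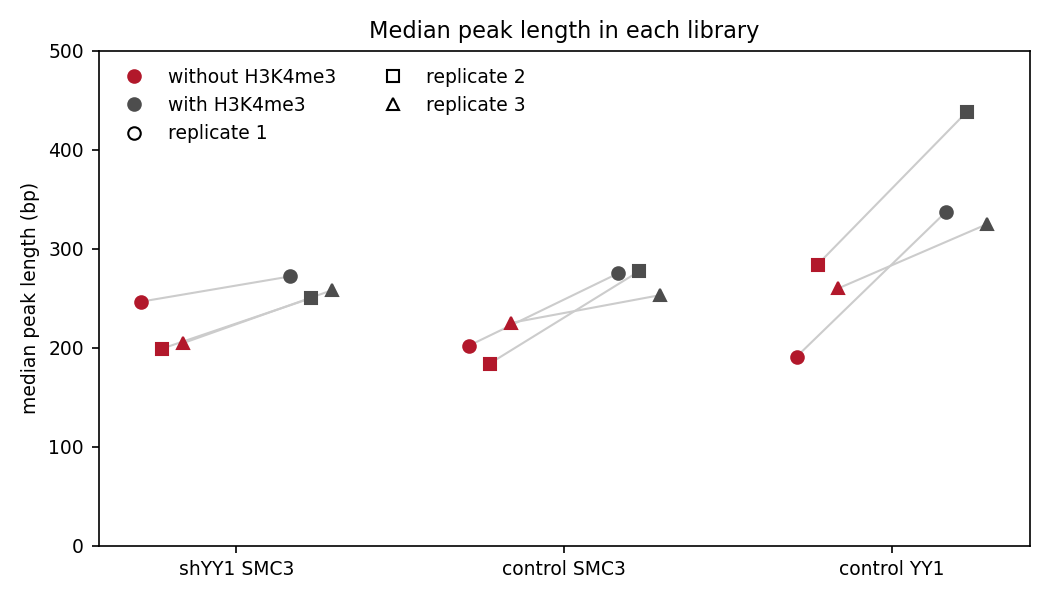
Median peak length in bp (vertical axis) in each library of shYY1 SMC3, control SMC3 and YY1, for regions without H3K4me3 (red, left) and with it (grey, right). Lines join the 2 values of a library; the value without H3K4me3 is lower in 9 of 9 libraries.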

How the data were processed

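CUT&Tag peak lists of 12 of 15 libraries were analysed. The submitters' processing notes name the build mm10, MACS2 2.2.9.1, Picard 3.1.1, Bowtie2 2.5.1 and cutadapt 4.5; their settings, the treatment of duplicates and of reads that map to several places, and any use of IgG were not given in these sources. The lists deposited by the authors hold starts, ends and summit offsets in bp, with no score or count. Summit offsets show that starts count from 0; coordinates are printed from 1. Peak length is the interval length.

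Members and gene lists were chosen with earlier results of these data known. Classes were compared within each library by a two-sided exact sign-flip permutation, and arms by an exact permutation over 20 assignments. Benjamini-Hochberg adjustment was over 9 tests at a threshold of 0.05. The 9 include comparisons given above as a description: near starts, peak length, YY1 at SMC3 regions, and SMC3 at YY1 regions over both arms. The adjusted p values thus depend on comparisons whose direction the choice of regions could set. Python 3.11.15, numpy 2.4.6 and pandas 2.3.3 were used. The calculations were tested on simulated lists. Regions named are those with the longest YY1 peaks in 3 of 3 libraries, with SMC3 in most libraries, with SMC3 in 1 arm only, near a listed gene, and nearest to H3K4me3; others were named after their values were seen. Gene spans, starts and promoters came from RefSeq tables of GRCm38.p6. Starts on chromosome 18 were not used, and starts of some genes on other chromosomes were missing. The planned sequences around summits were not read, since no genome was used. The lists of replicates shared at most 1.43% of identical intervals. No column of other samples was present.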

Additional observations from a re-analysis of the deposited data

How the results depend on the processing

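No adjusted p passed 0.05, and no arm difference could, so an unchanged side of that threshold says nothing of stability. With regions called in 3 of 3 libraries there were 102 regions without H3K4me3, the SMC3 difference at YY1 regions (without minus with H3K4me3) was 0.633 points, the difference between arm differences was -1.68 and the shYY1-only count was 0. Without both libraries naming Abcam these gave -13.0 points for SMC3 at YY1 regions, -66.6 points near starts, -62.4 bp for SMC3 length, 0.168 points between arms and a shYY1-only count of 3; fewer libraries raise the smallest possible p there. The arm difference was 2.69 points with equal counts of longest SMC3 peaks. The arm difference in SMC3 peaks off H3K4me3 was -0.118 points against H3K4me3 regions of 2 or more libraries and -0.0368 without repeat-prone places. Without V segments, small RNA genes, chromosome Y and chromosome starts, chosen after the data were seen, 331 regions remained and 3 were control-only.

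Leaving out 1 library gave 184 to 430 regions, -14.8 to 0.817 points for SMC3 at YY1 regions, -11.1 to -0.449 points between arms, -1.79 to 6.12 for the difference between arm differences, -0.497 to 0.940 points off H3K4me3, -69.2 to -66.6 points near starts, -59.7 to -51.3 bp for SMC3 length, 5 to 27 control-only and 0 to 3 shYY1-only regions. The cause of these moves was not tested. YY1 at SMC3 regions, YY1 length and SMC3 called again in shYY1 stayed below 0 in 19 of 19 alternatives each. Every alternative chose regions in the same way. That choice could set the direction for YY1 at SMC3 regions and YY1 length, so their unchanged sign says little of stability.

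With the replicate block the arm difference was -4.83 points (exact sign-flip permutation p = 0.75, a description as above). The difference between arm differences was 3.37 and the difference off H3K4me3 0.101. Deviations of same-numbered libraries correlated by -0.00583, 0.0334 and -0.0283, and those of differently numbered libraries by -0.0394 to 0.0497. These values cannot show whether same-numbered libraries shared a batch or culture. Depth is unknown, so an uncalled peak does not show absence.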
